A study of Homo sapiens with 4 samples.

Results

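LTR12C is a family of long terminal repeats (LTR), the ends of ERV9-type endogenous retroviruses, of which many copies stand alone in the human genome. The loci described here are those LTR12C copies whose counts, after treatment with 2 epigenetic inhibitors, differed more than 4-fold between H1299 and HCT116 cells. They were chosen from the table of transposable element (TE) counts. A locus was taken when it had at least 100 counts in treated H1299 or treated HCT116 cells and when the ratio of its CPM (counts scaled to the same total of gene and TE counts in every library, with 1 count added) between these 2 libraries was above 4 or below 0.25. Of 2350 LTR12C loci and 261609 TE loci listed, 1106 LTR12C loci reached 100 counts, and 399 of them were biased to one treated line. In 66 loci the bias was to treated H1299 and in 333 to treated HCT116, while 707 loci lay within the limits and serve as the comparison set.

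H1299 cells derive from a human lung carcinoma of the non-small cell type, HCT116 cells from a human colorectal carcinoma. Cultures received either DMSO, the solvent, or DAC+SB, the DNA methyltransferase inhibitor DAC (decitabine) at 500 nM for 72 h together with the histone deacetylase inhibitor SB939 at 500 nM for 18 h. Medium with compounds was renewed every 24 h and cells were at passage 5 to 10. Polyadenylated RNA was profiled by 10x Genomics single-cell sequencing from the 5′ end, so reads come from near the start of transcripts. By their names, the TE counts are counts at transcription start sites and the gene counts are all genic counts. Every line and condition gave 1 library without a replicate, 4 libraries in all.

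LTRs carry the promoter and the polyadenylation signal of a retrovirus, and a solitary LTR can still start transcripts into the sequence beside it. In most adult cells such promoters are kept silent by DNA methylation and by repressive chromatin that KRAB zinc finger proteins direct to them. LTR12 elements are known for answering inhibitors of histone deacetylases, and their promoter is known to bind the CCAAT-box factor NF-Y.

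The libraries held between 3578 and 4327 cells, 38927267 to 64524196 counts in all and a median of 8449 to 17369.5 counts per cell, treated HCT116 being the shallowest. Of 15289 cells, 1.71% carried a barcode that occurred in 2 libraries. The lines were compared by marker genes. The 6 H1299 markers (VIM, ZEB1, ZEB2, CDH2, AXL and G0S2) summed to 3036 and 1247 CPM in the untreated and treated H1299 libraries, against 84.5 and 287 in the HCT116 libraries. All 6 were higher in H1299 in both conditions, VIM holding 75.2% and 92.3% of the H1299 sums, and ZEB1 was nearly level in treated cells at 14.4 and 14.1 CPM. The 10 HCT116 markers (EPCAM, CDX1, CDX2, ESRP1, CLDN4, CLDN7, ELF3, VIL1, RAB25 and SPINT1) summed to 225 and 118 CPM in the untreated and treated HCT116 libraries, against 0.511 and 22.5 in H1299. In each condition 9 of the 10 were higher in HCT116. CDX1 was at 0 in both DMSO libraries, and ESRP1 stood at 2.41 CPM in treated HCT116 and 2.92 in treated H1299. LTR12C as a whole stood at 186 and 18514 CPM in untreated and treated H1299 cells and at 314 and 26268 in HCT116 cells. The median log2 ratio of H1299 over HCT116 across the 1106 loci was -0.87, and -0.37 when scaled to LTR12C counts alone. Differences between libraries have no replicate check, no test was possible, and intervals (95%, exact) cover counting error only.

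The treated counts chose the loci, so this contrast is only described. The biased loci were 36.1% of the LTR12C loci with at least 100 counts, against 47.1% when the same limits were applied to the 2630 TE loci of all families with as many counts. Bias to H1299 took 5.97% of LTR12C loci and 8.25% of all TE loci, and bias to HCT116 took 30.1% and 38.9%. The 2630 loci include the LTR12C loci. Of the 1524 TE loci of other families with as many counts, 9.91% were biased to H1299 and 45.3% to HCT116. Among the 12 families, LTR12C included, with at least 50 loci of 100 or more counts, the biased share ran from 28.6% in MSTA to 62.7% in LTR12. LTR12C lay low in that range, near LTR12D at 33.3% and AluY at 33.3%. The families also differed in their median log2 ratio of H1299 over HCT116. It was -0.87 in LTR12C, -2.51 in LTR12, -1.09 in LTR12D, -0.45 in MSTA and -0.14 in AluY. At fixed limits the biased share depends in part on this median and so on the scaling. The order of the families therefore does not rank them by bias between the lines.

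The balance between the lines depended on the scaling. With 66 and 333 loci, 83.5% of the biased loci favoured HCT116. When TE counts alone were the denominator, the median log2 ratio was -0.03, 150 loci were biased to H1299 and 211 to HCT116, and the HCT116 share was 58.4%. With LTR12C counts alone the numbers were 110 and 250, or 69.4%. Both scalings moved every log2 ratio toward H1299, so only HCT116-biased loci could leave their class. All 66 H1299 loci kept their class under both, and 211 and 250 of the 333 HCT116 loci did. Without mitochondrially encoded and ribosomal protein genes in the denominator, the ratios moved toward HCT116. There 56 of the 66 and all 333 kept their class. Most of the biased loci were therefore biased to HCT116 under each of these scalings, by a smaller margin when scaled to TE counts.

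**Figure D1:**
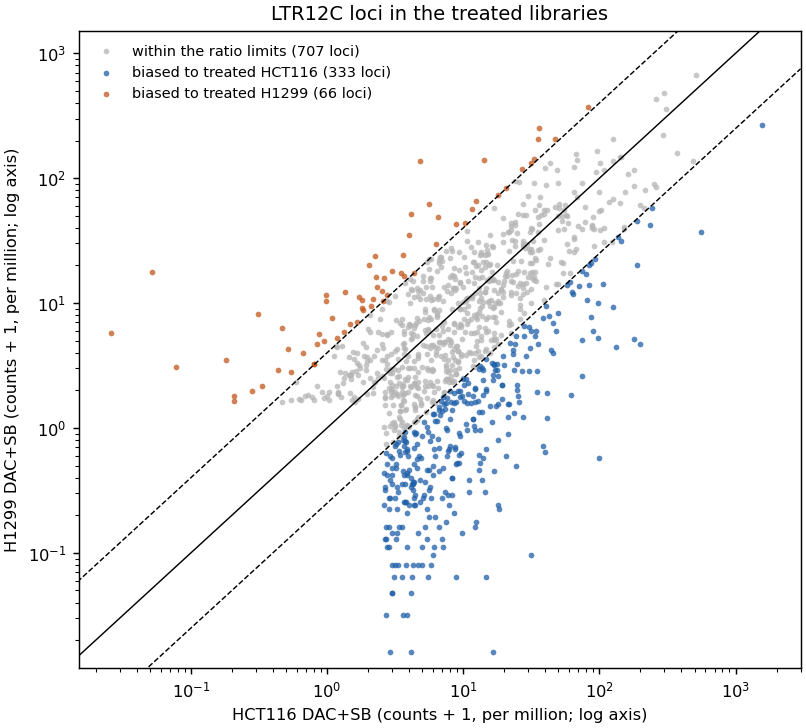
Each point is 1 of the 1106 LTR12C loci that reached 100 counts in either treated line, with its level (CPM with 1 count added, log axes) in HCT116 DAC+SB on the x axis and in H1299 DAC+SB on the y axis. The solid line marks equal levels and the dashed lines the 4-fold limits, beyond which lie 66 loci (orange, H1299) and 333 loci (blue, HCT116); the blue cloud reaches much farther from its limit than most orange points do.

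The H1299-biased loci were fewer than the HCT116-biased loci. They held 170318 counts in treated H1299, or 14.7% (14.7 to 14.8) of its LTR12C counts, against 18922 counts and 1.85% (1.82 to 1.88) in treated HCT116. The median difference was 5.83-fold, 18 of 66 loci exceeded 8-fold and 6 exceeded 16-fold. The HCT116-biased loci held 345943 counts in treated HCT116, 33.8% (33.7 to 33.9) of its LTR12C counts, against 73154 counts and 6.33% in treated H1299. Their median difference was 10.2-fold, with 195 of 333 loci beyond 8-fold and 104 beyond 16-fold. The order of these medians depended on the scaling, since the same 66 and 333 loci had medians of 10.5-fold and 5.69-fold scaled to TE counts and of 8.27-fold and 7.22-fold scaled to LTR12C counts. The counting interval of the ratio lay wholly past the limit for 46 of the 66 and 281 of the 333 loci.

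Few of these loci were silent in the other treated line. Of the 66 H1299-biased loci, 60 had at least 10 counts in treated HCT116, 27 had at least 100 and 1 had 0. Of the 333 HCT116-biased loci, 286 had at least 10 counts in treated H1299, 108 had at least 100 and 3 had 0. With at least 10 counts as the bar, most members were thus found in both treated lines at unequal levels. With 100 counts, the bar of the rule, most were not. A small number were found in one line alone at this depth.

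Locus 5309426 had the most counts of the H1299-biased loci. It had 1 count in untreated and 23238 in treated H1299, and 4 and 3223 in HCT116, the treated values being 372 and 82.8 CPM. The H1299 value was 4.50-fold (4.33 to 4.67) the HCT116 value. Both DMSO libraries were near 0 and both treated libraries far above them, with H1299 the higher. Locus 5832546 followed with 6, 15788, 1 and 1398 counts in the same order of libraries, a treated ratio of 7.04 (6.67 to 7.44). Locus 5314495 had 0, 12779, 2 and 1832 counts, and locus 5309948 had 0, 8915, 0 and 1287. These 4 loci shared the same shape, with almost nothing in either line under DMSO. Loci 2751781 (0, 8668, 1 and 551 counts) and 5688969 (0, 8282, 7 and 1215 counts) had it as well.

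Other leading H1299-biased loci were already active without the inhibitors. Locus 3147924 had 3398 counts in untreated and 8508 in treated H1299, and 0 and 187 in HCT116. It was 2.59-fold (2.49 to 2.69) higher with DAC+SB in H1299, and the treated H1299 value was 28.4-fold (24.5 to 33.0) the treated HCT116 value. In HCT116 its 187 treated counts were at least 100.3-fold above the DMSO library, where 3 counts were taken as the floor for 0. Locus 5888758 had 1037, 12831, 9 and 1380 counts, a 12.8-fold (12.0 to 13.6) difference under treatment in H1299. Locus 4518405 had 2054, 5236, 2 and 804 counts, and locus 5943301 had 1269, 2689, 0 and 343. For 4518405 and 5943301 the treated H1299 value was 2.63-fold and 2.19-fold its DMSO value. At loci 3147924, 4518405 and 5943301 the H1299 DMSO level, at 52.7, 31.8 and 19.7 CPM, exceeded the treated HCT116 level of 4.8, 20.7 and 8.81 CPM.

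Locus 1700968 had the most counts of the HCT116-biased loci. Its counts were 128 and 16533 in untreated and treated H1299 and 4266 and 60574 in untreated and treated HCT116, or 1.98, 265, 68.1 and 1556 CPM. The treated HCT116 value was 5.88-fold (5.78 to 5.98) the treated H1299 value, and HCT116 was the higher line with DMSO too. Scaled to TE counts its log2 ratio was -1.71, inside the limits, and of the 8 HCT116-biased loci with most counts 1657859, 2024301 and 2967734 also left the class. Scaled to LTR12C counts these 3 left it and 1700968 stayed, at -2.05. All 8 leading H1299-biased loci kept their class under both, since both scalings moved ratios toward H1299. Without mitochondrially encoded and ribosomal protein genes locus 5688969 was at 1.98, inside the limit. Locus 4056075 had 0, 2317, 41 and 21798 counts, a treated ratio of 15.1 (14.5 to 15.8) in favour of HCT116. Locus 5831105 had 1, 291, 77 and 7676 counts, a ratio of 42.3 (37.6 to 47.7), and locus 5098237 had 0, 321, 13 and 6954 counts, a ratio of 34.7 (31.1 to 39.0). Both were near 5 CPM in treated H1299, at 4.66 and 5.14, and at 197 and 179 in treated HCT116. The other loci among the 8 with most counts were 1657859, 2024301, 2967734 and 2691219. They had between 7321 and 9416 counts in treated HCT116, between 1252 and 3580 in treated H1299 and at most 3 in H1299 DMSO. Loci 696080, 337109 and 5062705 followed 1700968 in HCT116 DMSO counts. They had 287, 253 and 178 counts there and 633, 2746 and 477 in treated HCT116, against 1, 47 and 2 in untreated and 205, 858 and 128 in treated H1299. HCT116 was thus the higher line for all 3 in both conditions. At loci 696080 and 5062705 the HCT116 DMSO level, at 4.58 and 2.84 CPM, exceeded the treated H1299 level of 3.28 and 2.05 CPM.

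**Figure D2:**
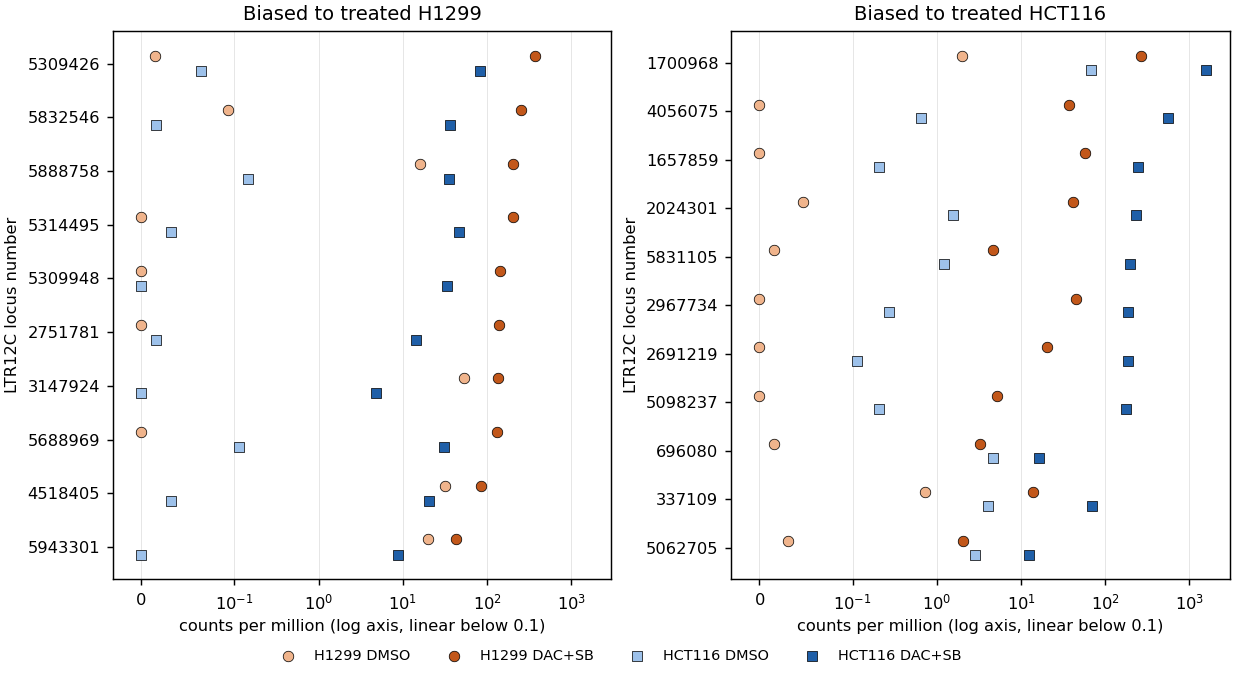
Levels (CPM, x axis, log scale with a linear part below 0.1) of the 8 loci with most counts and the 4 with most DMSO counts in each direction, by locus number (y axis), with circles for H1299 and squares for HCT116, pale for DMSO and dark for DAC+SB. In loci 3147924, 4518405 and 5943301 the pale H1299 circle lies to the right of the dark HCT116 square, whereas in most other loci both pale symbols lie far to the left of both dark ones.

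At the extremes a locus was seen in one treated line and hardly or not at all in the other. Locus 5214660 had 1110 counts in treated H1299 and 1 in treated HCT116, with 0 in both DMSO libraries, a ratio of 692 (124 to 27362). Locus 4596966 had 358 counts in treated H1299 and 0 in the 3 other libraries, at least 74.4-fold higher than in treated HCT116. Locus 400939 had 191 and 2 counts in treated H1299 and HCT116. In the other direction, locus 5399918 had 639 counts in treated HCT116 and 0 in treated H1299, at least 342-fold higher, with 2 counts in H1299 DMSO and 0 in HCT116 DMSO. Of these 639 counts 632 were at position number 50, a field of the feature name that is listed in treated HCT116 alone, and with the 7 others the locus would not have been a member. Locus 2872306 had 159 and 0 counts, at least 85.0-fold higher in HCT116. Loci 4984222 and 29445 had 1227 and 571 counts in treated HCT116 against 5 and 3 in treated H1299. All of these were at 0 in the DMSO library of the line of the bias. Locus 3147924, described above, ranked 4 by ratio among the H1299-biased loci and was unlike them. It had 3398 counts in H1299 DMSO and 187 in treated HCT116. No position in the genome is attached to these loci in the files, so whether both lines carry them was not tested.

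At the limits themselves the classes ran into each other. The H1299-biased loci nearest to the limit were 6310400, with 1083 and 167 counts in treated H1299 and HCT116 and a log2 ratio of 2.01, and 4518405, at 2.02. Just outside lay 2546730 (1397 and 218 counts, 1.99) and 3310282 (145 and 22 counts, 1.98). On the HCT116 side 2517639 (2114 and 5288 counts) and 3854053 (109 and 275 counts) were just inside, and 6045009 (82 and 206 counts) and 2852211 (54 and 136 counts) just outside, with log2 ratios from -2.01 to -2.0 on this scale.

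The DMSO libraries played no part in choosing the loci, and most members with enough DMSO counts had the same direction there. Taking loci with at least 10 counts in the higher DMSO library, 10 of the 66 H1299-biased loci qualified, and all 10 were higher in CPM in H1299 DMSO. Of the 333 HCT116-biased loci 40 qualified, and 38 were higher in HCT116 DMSO. Of the 707 loci within the limits 91 qualified, of which 18 were higher in H1299 DMSO and 73 in HCT116 DMSO. Among all 144 LTR12C loci with as many counts 21.5% were higher in H1299 DMSO and 78.5% in HCT116 DMSO. Over all TE loci the shares were 43.7% and 56.3%, and over TE classes listed in both DMSO libraries 54.9% and 45.1%. Past 4-fold, the H1299-biased loci numbered 10 of 10 higher in H1299, against 19.4% of LTR12C loci, 26.3% of all TE loci and 24.4% of TE classes listed in both. The HCT116-biased loci past 4-fold numbered 37 of 40 higher in HCT116, against 68.1%, 41.2% and 17.9%. The HCT116 count of 38 of 40 thus stood above an LTR12C background that already favoured HCT116, and the H1299 count of 10 of 10 stood against that background. Under some other choices the H1299 set was less one-sided, with 13 of 14 loci higher in H1299 DMSO when classes and levels were scaled to TE counts and 13 of 15 at limits of 2 and 0.5. At a minimum of 5 counts 13 of 14 H1299-biased and 61 of 63 HCT116-biased loci were higher in the line of the bias. Without the cell with most counts of each locus the numbers were 10 of 10 and 32 of 34. Fewer HCT116-biased loci then reached 10 DMSO counts. At these other choices the comparison loci were not counted. Of the loci with any DMSO count, 20 of 34 H1299-biased loci were higher in H1299 and 14 in HCT116, while 172 of 185 HCT116-biased loci were higher in HCT116. The loci within the limits with any DMSO count numbered 411, of which 76 were higher in H1299 and 335 in HCT116. Both sets thus differed from the comparison loci toward the line of their bias.

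**Figure D3:**
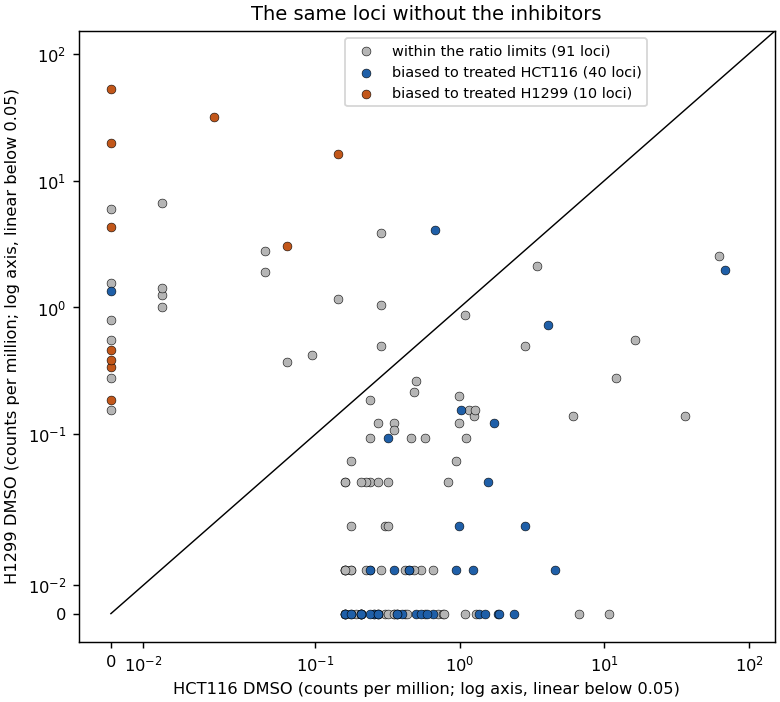
Levels in the DMSO libraries (CPM, log axes with a linear part below 0.05) of LTR12C loci with at least 10 counts in the higher of them, HCT116 on the x axis and H1299 on the y axis, coloured by their class in the treated libraries; the line marks equal levels. All 10 H1299-biased loci (orange) lie above the line, and 38 of the 40 HCT116-biased loci (blue) lie below it.

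Most of the LTR12C signal of untreated H1299 came from the H1299-biased loci. These 66 loci held 8362 of the 12010 LTR12C counts of H1299 DMSO, 69.6% (68.8 to 70.4), and 49 of the 19665 of HCT116 DMSO, 0.249% (0.184 to 0.329). That share rested on few loci. Loci 3147924, 4518405, 5943301 and 5888758 held 92.8% of the 8362 counts. Without them 604 counts remained in H1299 DMSO and 38 in HCT116 DMSO, and all of the 6 remaining loci with at least 10 DMSO counts were higher in H1299. The 333 HCT116-biased loci held 6905 counts in HCT116 DMSO, 35.1% (34.4 to 35.8) of its LTR12C counts, against 598 counts and 4.98% (4.60 to 5.38) in H1299 DMSO. Locus 1700968 alone held 61.8% of the 6905, and 2639 counts in HCT116 DMSO against 470 in H1299 DMSO remained without it. The 707 loci within the limits held 24.6% of the H1299 and 63.4% of the HCT116 DMSO counts of the family.

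Many members had no DMSO baseline. Both DMSO libraries were at 0 for 32 of the 66 H1299-biased loci (48.5%), for 148 of the 333 HCT116-biased loci (44.4%) and for 296 of the 707 loci within the limits (41.9%). At least 10 counts in a DMSO library were found for 10 of the 66 and 40 of the 333 biased loci.

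Against this pattern, 2 of the 40 HCT116-biased loci were higher in H1299 DMSO. Locus 379248 had 261 counts in H1299 DMSO and 42 in HCT116 DMSO, but 883 in treated H1299 and 4166 in treated HCT116. It was 3.50-fold (3.04 to 4.03) higher with DAC+SB in H1299 and 159.6-fold (118 to 222) higher in HCT116, so that the order of the lines turned under treatment. Locus 3230524 had 87 counts in untreated and 13 in treated H1299, and 0 and 712 in HCT116. Its treated H1299 value was 0.154 (0.0791 to 0.278) of the DMSO value, while HCT116 was at least 382-fold higher with DAC+SB. Its 87 DMSO counts were spread over 71 cells, but 83 of them were at position number 58, which is listed in H1299 DMSO alone. At number 59 it had 4 counts in H1299 DMSO, so its lower treated value rested on number 58.

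Nearly every member with enough counts was higher with DAC+SB than with DMSO in both lines. In H1299, 62 of the 66 H1299-biased loci and 107 of the 108 HCT116-biased loci with at least 100 counts in either library were more than 4-fold higher with DAC+SB, against 99.0% of all LTR12C loci and 91.8% of all TE loci. In HCT116 the counts were 27 of 27 and 332 of 333, against 99.7% and 94.2%. With at least 100 counts no member was below 0.25 in either line, against 0 LTR12C loci and 1.05% of all TE loci in H1299 and 0.635% in HCT116. The high treated counts were required by the rule, so these counts are a description.

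The ratio of DAC+SB over DMSO is given here as a description, since the treated counts in it chose the loci and most DMSO counts were near 0. On the log2 scale with 1 count added, the H1299-biased loci had a median log2 ratio of DAC+SB over DMSO of 8.63 (interquartile range 7.04 to 10.17) in H1299 and 6.82 (5.39 to 7.83) in HCT116. The HCT116-biased loci had 5.44 (4.14 to 6.88) in H1299 and 8.07 (7.28 to 9.11) in HCT116. For the loci within the limits the medians were 8.44 in H1299 and 8.0 in HCT116. With classes chosen anew at each scaling, the median in H1299 was 0.67 for the 211 loci biased to HCT116 scaled to TE counts. It was -1.68 for the 250 such loci scaled to LTR12C counts, so scaling and set changed together. Ratios of the summed counts ran the other way. The H1299-biased loci together were 21.1-fold (20.6 to 21.5) higher with DAC+SB in H1299 and 621-fold (469.8 to 840.2) in HCT116, and the HCT116-biased loci 126-fold (117 to 137) in H1299 and 80.6-fold (78.7 to 82.6) in HCT116, against 312-fold and 80.9-fold for the loci within the limits. In the line of the bias few loci held most of the DMSO counts in these sums, as given above. The DMSO counts of most loci were so few that these medians moved by several units with the count added. When 10 were added, in the rule as well, 57 and 323 loci were biased to H1299 and HCT116. The 4 medians of these sets were 5.96, 3.92, 2.47 and 5.52.

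Loci with 100 or more DMSO counts had the smallest median fold under treatment in both sets. Among H1299-biased loci with 0 counts in H1299 DMSO (41 loci) the median was at least 269-fold with 3 counts as the floor, while with 1 count added it was 170.0-fold among those with 1 to 9 counts (15 loci), and among those with 10 to below 100 counts (4 loci) 20.2-fold and with 100 or more (6 loci) 2.61-fold. HCT116-biased loci had medians of at least 127-fold (159 loci), 212-fold (135 loci), 80.5-fold (31 loci) and 12.9-fold (8 loci) over the same ranges of HCT116 DMSO counts. The first value for each line is a bound and is not ranked against the rest. With 1 count added, as in the other ranges, loci with 0 counts had medians of 807-fold for H1299 and 383-fold for HCT116. The DMSO count stands on both sides of this relation, so part of it is arithmetic. The treated counts themselves had medians of 780, 666, 452 and 4911 over the 4 ranges for H1299 and of 237, 343, 1854 and 1712 for HCT116, so that loci with 100 or more DMSO counts had more treated counts than loci with 0.

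The share of cells with a count and the counts per positive cell are given here side by side. Counts per positive cell cannot fall below 1, so at sparse loci a difference can show only in the share of cells. Among the 60 H1299-biased loci with at least 10 counts in treated HCT116, the share of cells with a count was a median of 7.91 times higher in treated H1299, and the counts per positive cell 1.33 times higher. For 286 HCT116-biased loci the corresponding values were 3.99 and 1.17. The locus with most counts in each set was the reverse, with ratios of 2.66 in the share of cells and 3.15 in counts per positive cell for 5309426, and of 1.45 and 2.17 for 1700968. These values were not corrected for the median of 15784.5 counts per cell in treated H1299 against 8449 in treated HCT116, and a deeper cell shows a locus more often.

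To compare cells at one depth, each was thinned to 3300 counts, which left out 402 treated HCT116 cells and none of the other libraries. Locus 5309426 was then seen in 46.9% (45.3 to 48.5) of treated H1299 and 16.7% of treated HCT116 cells, and in 0 and 0.0820% of DMSO cells of H1299 and HCT116. A count of 0 in 3578 thinned H1299 DMSO cells allows a share of up to 0.0838% of cells with a count at this depth, and without thinning 1 cell had a count. Unthinned, the treated shares were 72.1% and 27.1%. Locus 1700968 was seen in 36.0% of treated H1299 and 83.0% of treated HCT116 cells, and in 0.475% and 13.9% of DMSO cells, or 62.6% and 91.0% of treated cells without thinning. Locus 3147924 was seen in 13.4% of H1299 DMSO, 28.5% of H1299 DAC+SB, in 0 of 3658 HCT116 DMSO cells, which allows up to 0.0820% of cells with a count at this depth, and in 1.48% of HCT116 DAC+SB cells. Cells known to lack LTR12C transcripts were not among the samples, so the share that free RNA gives was not measured.

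Loci with like totals differed in how the counts fell among cells. In treated H1299, locus 3147924 had 8508 counts in 2551 cells, 3.34 per positive cell, and locus 2751781 had 8668 counts in 2046 cells, 4.24 per positive cell. Locus 5309426 had 8.65 counts per positive cell and up to 174 in 1 cell, and locus 1700968 in treated HCT116 had 15.4 and up to 219. Some DMSO counts of HCT116-biased loci came from single cells. Locus 2024301 had 98 counts in 47 HCT116 DMSO cells, 41 of them in 1 cell. Locus 5831105 had 77 counts in 31 cells with 24 in 1 cell, and all 7 DMSO counts of locus 2691219 lay in 1 cell. In H1299 DMSO the counts of loci 3147924, 4518405 and 5943301 were spread over 1446, 1262 and 900 of 3578 cells, with at most 23, 9 and 6 in any cell. The DMSO counts of these 3 loci were therefore spread over many H1299 cells.

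Summed over each set, the loci were seen in nearly every treated cell of the line of the bias, as were the loci within the limits. The latter had a count in 99.5% (99.2 to 99.7) of thinned treated H1299 and 99.4% (99.2 to 99.6) of treated HCT116 cells, and in 13.0% (11.9 to 14.1) and 36.7% (35.1 to 38.3) of DMSO cells. The H1299-biased loci together had a count in 94.9% (94.2 to 95.6) of thinned treated H1299 cells, with a median of 6 counts, and in 60.6% (59 to 62.1) of treated HCT116 cells, with a median of 1. In DMSO cells the shares were 30.5% (29.0 to 32.0) in H1299 and 0.246% (0.113 to 0.467) in HCT116. The HCT116-biased loci had a count in 82.8% (81.5 to 84.0) of treated H1299 cells, with a median of 2, and in 99% (98.6 to 99.3) of treated HCT116 cells, with a median of 22. Their DMSO shares were 2.96% (2.43 to 3.57) in H1299 and 21.6% (20.3 to 23.0) in HCT116. Without thinning, the H1299-biased set was seen in 70.0% of untreated and 99.4% of treated H1299 cells and in 0.957% and 76.9% of HCT116 cells, and the HCT116-biased set in 11%, 96.8%, 49.7% and 99.6% in the same order.

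**Figure D4:**
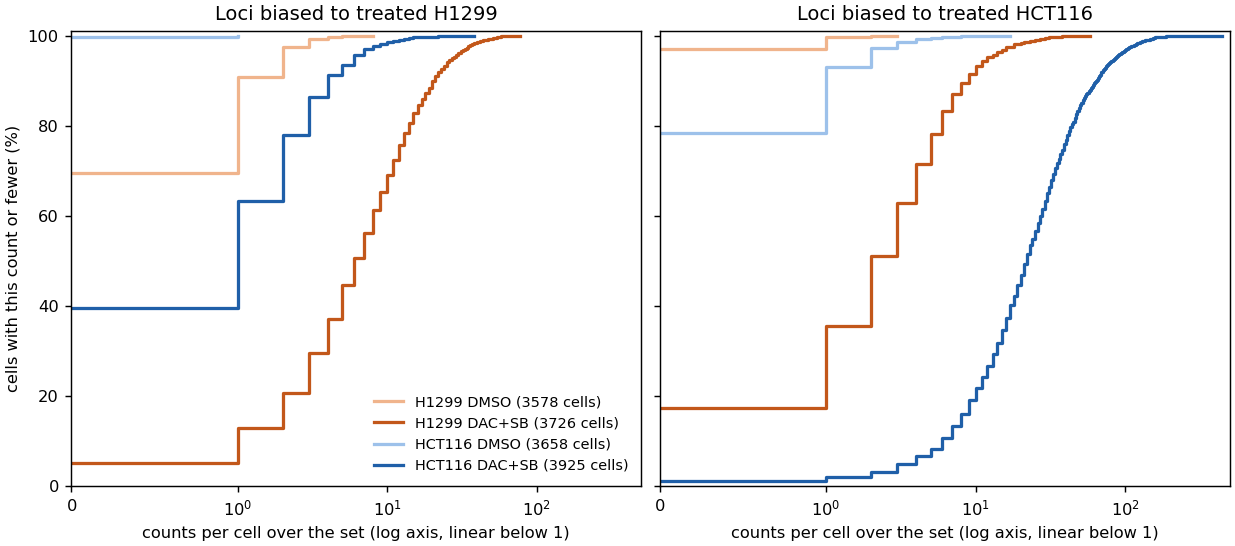
Cumulative share of cells (y axis, percent) by the summed counts per cell (x axis, log scale with a linear part below 1) over the 66 H1299-biased loci (left) and the 333 HCT116-biased loci (right), after thinning each cell to 3300 counts; each line is 1 library. The height of a line at 0 is the share of cells without a count, and in both panels the treated lines start lower and lie farther right than the DMSO lines.

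Within a treated library, cells with more counts of the biased loci were also the cells with more counts of the loci within the limits. Over 3726 thinned treated H1299 cells, the summed counts of the H1299-biased loci and of the comparison loci correlated with Pearson's r of 0.85 and Spearman's rho of 0.83. Over 3925 thinned treated HCT116 cells the values for the HCT116-biased loci were 0.91 and 0.90. The cells of a library share its capture and sequencing, and both sums come from the same fixed depth. With cells ranked by comparison counts and divided into 4 equal groups, in the lowest group of treated H1299 cells the H1299-biased loci averaged 2.45 counts against 11.6 of the comparison loci, and in the highest 20.1 against 102. For treated HCT116 the HCT116-biased loci averaged 8.62 against 12.9 in the lowest and 64.5 against 121 in the highest group. In both lines the biased loci thus increased along with the comparison loci from the lowest to the highest group.

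The second field of a feature name, a position number whose meaning the labels and files do not state, hardly varied. Position number 59 held 1155776 of 1155776 LTR12C counts in treated H1299 and 1021702 of 1022532 in treated HCT116. Number 58 was listed in H1299 DMSO alone, with 356 counts, and number 50 in treated HCT116 alone, with 830. Members had 97.1% of their counts at number 59 in H1299 DMSO and 99.8% in treated HCT116, against 97.6% and a rounded 100% for the comparison loci. Both had all of their counts there in the other 2 libraries. Counts at number 50 were found for 4 H1299-biased, 14 HCT116-biased and 31 comparison loci. With the position numbers listed in both treated libraries alone, 66 and 331 loci were biased, locus 5399918 being one of the 2 that were lost.

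The third field, the locus number, is the only trace of where a locus lies. The labels and files do not say how it was assigned, and whether close numbers are close in the genome was not tested. Of 29 pairs of LTR12C loci that followed each other in number and differed by at most 20, 24 were in the same class. Of these, 14 were pairs of HCT116-biased loci. The 14 pairs were not separate, since loci 5831105, 5831108, 5831110 and 5831126 followed each other, as did 4448258, 4448263 and 4448271. Of the 894 following pairs that differed by more than 500, 51.9% were in the same class and 9.51% were both biased to HCT116. Pairs biased to opposite lines numbered 0 of 211 up to a difference of 500 and 25 of 894 beyond it. When classes were scaled to TE counts alone, 21 of the 29 pairs were in the same class, 7 of them biased to HCT116. This look at locus numbers was chosen after the values had been seen.

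**Figure D5:**
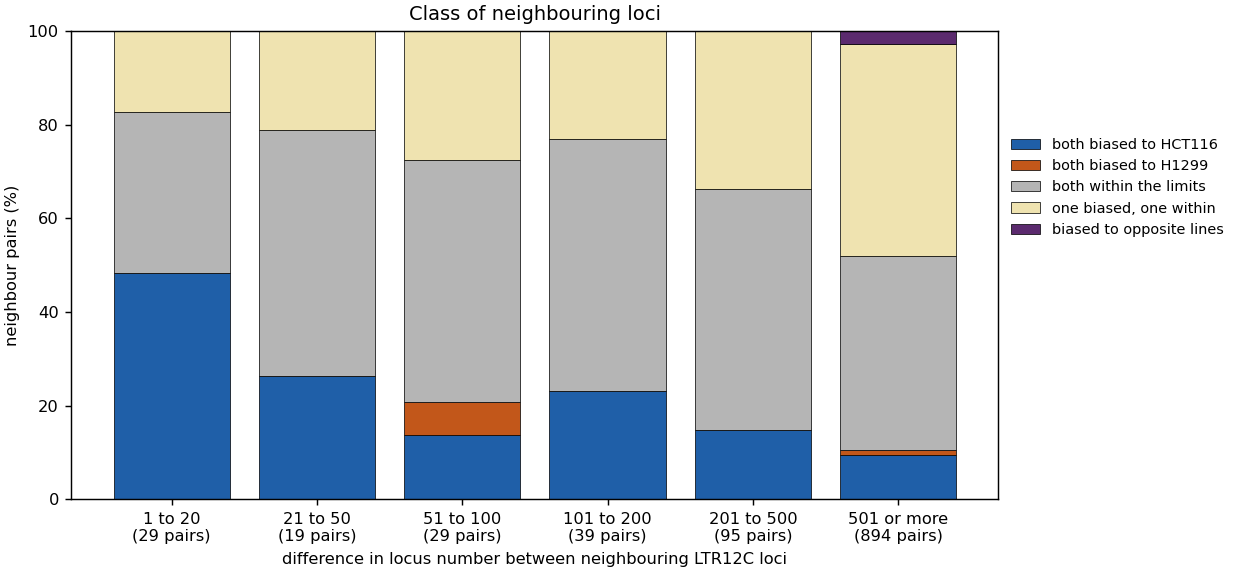
Share (y axis, percent) of pairs of LTR12C loci that follow each other in locus number, by the classes of their members, in 6 ranges of the difference in number (x axis, with the number of pairs). Pairs both biased to HCT116 (blue) make up 48.3% of pairs at most 20 numbers apart and 9.51% of those more than 500 apart, and pairs biased to opposite lines (purple) occur in the last range alone.

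Pairs in the same class could be alike or unlike in ratio and in level. Loci 781815 and 781816 had 335 and 310 counts in treated HCT116 and log2 ratios of -3.61 and -3.47. Loci 337109 and 337112 had 2746 and 649 counts and log2 ratios of -2.36 and -2.37. Locus 1700958, 10 numbers before locus 1700968, had 678 counts and a log2 ratio of -3.55, against -2.55 for 1700968. Loci 5382921 and 5382926 had log2 ratios of -4.83 and -2.22, loci 1495402 and 1495404 of -4.82 and -2.58, and loci 2503838 and 2503843 of -5.10 and -3.18. Near-identical copies can share reads. Of the 482 treated HCT116 cells with locus 1700958, 98.3% also had locus 1700968, which was found in 91.0% of all cells. Of the 268 cells with locus 781816, 13.1% had locus 781815, which was found in 5.50% of all cells. For loci 27107 and 27088 the corresponding shares were 31.0% and 8.46%. In every HCT116-biased pair at most 20 numbers apart, cells with the second locus had the first more often than all cells did. These cells were not thinned, and a deeper cell shows both loci more often. Biased and comparison loci also increased together across cells, as given above. Pairs far apart in number were not compared, so these shares do not set close pairs apart from others. The labels do not say how reads that match several copies were assigned, and its part in these pairs was not tested.

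Transcripts of factors known to act on LTR12 elements or to silence repeats were measured in the same cells. Of 19 such genes, 18 had at least 100 counts in a treated library, and none was more than 4-fold apart between treated H1299 and treated HCT116, against 8.81% of genes above and 4.64% below the limits. Their median log2 ratio was 0.01, beside 0.29 over all genes. Under DMSO none of 17 was past the limits, against 9.87% and 8.03% of genes. Of the subunits of NF-Y, which binds CCAAT boxes as a trimer, NFYA stood at 15.3 CPM in treated H1299 and 29.6 in treated HCT116, NFYB at 23.9 and 26.1, and NFYC at 38.0 and 20.5. The zinc finger factors GATA2 and MZF1 stood at 21.9 and 21.3 CPM and at 5.30 and 11.2, and SP1, a factor of GC-rich promoters, at 23.5 and 11.8. Of the silencing genes, TRIM28, the corepressor of KRAB zinc finger proteins, was at 61.5 and 116 CPM, and SETDB1, a histone H3 lysine methyltransferase, at 12.6 and 9.27. The de novo methyltransferase DNMT3A had the largest difference of the list, 8.75 against 2.41 CPM, a log2 ratio of 1.84.

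Between treatments, few of these genes passed 4-fold. In H1299 SUV39H1, another histone H3 lysine methyltransferase, went from 11.9 to 2.39 CPM and was the only one of 17 past the limits, against 11.0% of genes above 4 and 0.349% below 0.25. In HCT116 SUV39H1 went from 15.5 to 2.59 CPM and UHRF1, which guides DNMT1 to replicated DNA, from 124 to 28.3. These 2 of 18 were below the limit, against 3.63% of genes. ZNF728, a KRAB zinc finger gene, went from 0 to 114 counts and was the 1 of 18 above 4, against 9.61% of genes. ZNF728 had 0 and 64 counts in H1299, and ZNF676, another such gene, had at most 22 counts in any library. Transcript levels do not measure the activity of the proteins, and the part of these genes in the bias was not tested.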

How the data were processed

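Single-cell 5′ RNA profiles of H1299 and HCT116 cells, each with DMSO or DAC+SB, were available as 2 deposited tables of whole-number counts per feature and cell, 1 for genes and 1 for TE. Per the submitters' processing notes the build was GRCh38 (hg38), and CASAVA and STAR were used. Whether the deposited counts are UMI counts, the counting tool, the cell filter and the treatment of reads that match several loci were not stated there or in the labels. The lowest count of a listed TE class (family and position number) was 20.

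Cells were assigned to libraries by their names. All cells had at least 500 counts, and no doublet caller was run. Counts were summed per locus and library with pandas 2.3.3 in Python 3.11.15, and divided by the library's gene and TE counts. Ratios in the rule had 1 count added. Other ratios carry exact conditional binomial intervals and shares exact Clopper-Pearson intervals (SciPy 1.17.1), at 95%. A count of 0 was set to 3 counts for a bound. Genes were summed over features naming 1 gene. The interval and rule functions were tested on simulated data. With 1 library per group no p-value was computed.

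Loci were named by fixed rules in each direction: the 8 with most treated counts, the 4 with the ratio farthest from 1, up to 4 with most counts in either DMSO library (at least 10 in the other line's), and 2 on each side of the limit. The other loci, the comparison of loci close in locus number, and the alternatives on shared barcodes and the 4 loci with most DMSO counts were chosen after their values were seen. The members and lists were chosen with earlier results of these data known. TE loci have no coordinates in the table and no sequence was printed.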

Additional observations from a re-analysis of the deposited data

Results flagged for a closer look

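LTR12C locus 3230524 moved in opposite directions in the lines, with a log2 ratio of DAC+SB over DMSO of -2.60 in H1299 (87 to 13 counts) and 10.16 in HCT116 (0 to 712 counts). With 1 library per group this difference between the lines was not tested, and its cause was not tested. Of the 87 counts in H1299 DMSO, 83 were at position number 58, listed in that library alone. At number 59 the locus went from 4 counts in untreated to 13 in treated H1299, so the opposite directions rested on number 58.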

How the results depend on the processing

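No paired analysis was possible because each group has 1 library, and no replicate could be left out. The number of biased loci moved with the limits, the scaling and the count minimum. In H1299 and HCT116 they were 150 and 211 scaled to TE counts, 110 and 250 scaled to LTR12C counts, 168 and 517 at limits of 2 and 0.5, 18 and 195 at 8 and its inverse, and 70 and 440, 59 and 225, and 44 and 122 with a minimum of 50, 200 and 500 counts. Without mitochondrially encoded and ribosomal protein genes they were 56 and 357, and without cells whose barcode occurs in 2 libraries 66 and 330. The HCT116-biased loci higher in HCT116 DMSO numbered 21 of 23, 25 of 27 and 61 of 63 when scaled to TE counts, to LTR12C counts or with a minimum of 5 DMSO counts, and 6 H1299-biased loci were higher in H1299 DMSO without the 4 loci with most DMSO counts. Median log2 responses were taken over the loci biased under each setting, so the set changed along with the setting. The median of the H1299-biased loci was 5.28 in H1299 and 3.05 in HCT116 scaled to TE counts. It was 2.58 and 0.77 scaled to LTR12C counts and 5.96 and 3.92 with 10 counts added. That of the HCT116-biased loci was 0.67 and 3.95, -1.68 and 1.67, and 2.47 and 5.52 in the same order. The median in H1299 was thus negative for the 250 loci biased to HCT116 when scaled to LTR12C counts, which as a family were higher with DAC+SB. The median of the HCT116-biased loci was 4.81 in H1299 and 7.60 in HCT116 with libraries thinned to the same total. It was 8.53 in HCT116 without the cell with most counts of each locus. Unthinned shares of cells were 72.1% and 27.1% for locus 5309426 and 62.6% and 91.0% for locus 1700968 in treated H1299 and HCT116. The share at position number 59 in H1299 DMSO was 91.5% for members and 92.9% for comparison loci with loci weighted equally, and 97.7% for members without the top locus. In treated HCT116 members were at 99.6% and 99.8% and comparison loci at a rounded 100% with loci weighted equally. Of 259 values for 37 named loci under 7 alternatives, 84 left their counting interval and 0 changed sign. The named loci were near or past the 4-fold limit, so these alternatives could hardly change a sign, and the 0 does not measure stability. Of 19 named HCT116-biased loci 10 stayed past the limit scaled to TE counts and 12 scaled to LTR12C counts. All 14 named H1299-biased loci stayed, since both scalings moved every ratio toward H1299. Without mitochondrially encoded and ribosomal protein genes loci 5688969, 4518405 and 6310400 fell inside it, at log2 ratios of 1.98, 1.91 and 1.90. The depth limits statements on loci with few DMSO counts.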

Other observations

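Other TE loci had numbers close to a member. Within 20 numbers of HCT116-biased LTR12C loci lay 16 pairings with a locus of another family that had at least 100 treated counts, of which 12 were also biased to HCT116 and 0 to H1299. These are 12 distinct loci, 9 of them biased to HCT116, beside 45.3% of the 1524 TE loci of other families with as many counts, of which 9.91% were biased to H1299. For comparison loci 26 such pairings included 11 biased to HCT116 and 4 to H1299, and for H1299-biased loci 4 pairings included 1 biased to H1299. The other loci include HERV9NC, the internal part of the ERV9 elements that LTR12C flanks. HERV9NC locus 337111, numbered between LTR12C loci 337109 and 337112, had 48 counts in treated H1299 and 126 in treated HCT116. HERV9NC locus 379246 had 30 and 765 counts beside LTR12C locus 379248. L1PA7_3end locus 1700967, next in number to LTR12C locus 1700968, had 0 counts in treated H1299 and 460 in treated HCT116. LTR12_ locus 3147936 had 225 and 17 counts and lay 12 numbers from the H1299-biased locus 3147924. These loci were chosen after their values were seen, and how reads were shared among neighbouring features was not tested.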
